A study of Mus musculus with 32 samples.

Results

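Claudins, connexins and the proteins of desmosomes hold neighbouring cells together, seal the space between them and let them exchange ions. The genes of these 3 kinds of junction were followed in whole lung of mouse pups that grew up in 21% O2 or in 85% O2. They were chosen by name: every gene on the array whose symbol starts with Cldn, Tjp, Gja to Gje, Dsg, Dsc or Pkp and a number, together with Ocln, Cgn, F11r, Dsp and Jup. This gave 64 of the 35715 gene names on the array, read by 77 array entries, and 48 of the 64 were kept because in 1 group or more all 4 arrays read an entry well above background. Their levels were compared between oxygen levels, between ages and between pups given an inhibitor of miR-34a or a scrambled control.

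Tight junctions close the gap between cells near the surface that faces the air or the blood. Claudins form their strands, some as seals and some as pores for ions or water, while occludin (Ocln) and junctional adhesion molecule A (F11r) share the strands, and ZO proteins such as those of Tjp1 and Tjp3 and cingulin (Cgn) tie them to actin. Connexins (the Gj genes) assemble into gap junction channels through which small molecules pass. In desmosomes the cadherins desmoglein (Dsg) and desmocollin (Dsc) bridge the cells, and plakoglobin (Jup), the plakophilins (Pkp) and desmoplakin (Dsp) anchor them to keratin filaments. In the lung these junctions keep fluid out of the airspaces and plasma inside the vessels.

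All pups were wild-type C57Bl/6J mice, and 4 mice, each on an array of its own, made up each of 8 groups. They were injected into the peritoneum after birth with antagomiR-34a (A34a mice), an oligonucleotide that blocks miR-34a, or with a scrambled oligonucleotide (SCR mice), and were kept in normoxia (21% O2) or in hyperoxia (85% O2), a model of bronchopulmonary dysplasia in which the forming of alveoli stops. Lungs were taken at postnatal day 5 or 14 (P5 and P14, which the sampling protocol places part of a day later). All mice carried 1 of the 2 oligonucleotides, and neither is limited to a cell type. For RNA isolation the sample protocol and the methods name different kits, and for the P14 mice different anaesthetics.

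Levels are given on the log2 scale as the spot signal against the array's 75th percentile, so that a value of 0 lies at that percentile, with fold changes ± their standard error (SE), and 2 probes are never compared in level. The 32 arrays lay on 4 slides, 1 for each age and oxygen level, with SCR mice on one row of a slide and A34a mice on the other. Oxygen and slide therefore cannot be told apart, and neither can the oligonucleotide and the array row. Between 33614 and 40786 probes of an array were well above background. Some libraries stood apart by marker genes of cell types: mouse 4 of the SCR mice in 21% O2 at P5 had a mean level of 1.73 over 7 skeletal muscle genes, and the others of its group from -1.98 to -0.95. Mouse 4 of the A34a mice in 85% O2 at P14 had means of 4.53 over airway secretory genes, -1.47 over adipocyte genes and 3.64 over type I pneumocyte genes, where the others of its group had 1.33 to 1.51, -5.74 to -5.32 and 4.10 to 4.26. The named calls that change without either mouse are also given without it. Single lists set other mice apart, such as the airway secretory genes in mouse 4 of the A34a mice in 85% O2 at P5 (2.06, the others 0.30 to 0.52). In whole lung, fewer cells of a type and less RNA per cell cannot be told apart.

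Of the 23 claudins 20 were kept, of the 20 connexins 14, of the 9 desmosomal cadherins 3 and of the 6 desmosomal plaque genes 5. All 6 of the other tight junction genes, among them Ocln, F11r, Cgn, Tjp1 and Tjp3, were well above background in all 8 groups, as were 11 claudins and 9 connexins. The genes that were not kept included Pkp1, Dsg3, Dsc3, Dsc1 and the desmoglein 1 genes Dsg1a and Dsg1b, which belong to stratified epithelia such as skin. Cldn16 and Cldn19, a pair of renal claudins, were not kept either. Dsg2, Dsg1c and Dsc2 were thus the desmosomal cadherins left to measure. Some dim genes were kept at an age through the groups of 1 oxygen level alone, so that the filter favoured a difference in that direction, and their calls, which the counts include, are a description. At P14 these were Cldn2, Cldn20 and Gja6 and the second probes of Dsg2 and Dsp, kept through hyperoxic groups, and Cldn13, Cldn22, Gja3 and Gja10, kept through normoxic ones. At P5 they were Cldn22, Gja10 and Gjc3, kept through normoxic groups.

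After 85% O2 more of these genes moved than stayed, in both directions, and at P14 Cldn4, Cldn5, Cldn7, Tjp3, Gjb2, Gjb6 and Dsg2 were higher in both SCR and A34a mice, Tjp1, Cldn11, Gja4 and Jup were lower, and Cldn3, Cldn18 and Cgn did not pass the test. A gene is said to have risen or fallen where limma's test gave an adjusted p under 0.05 over all probes tested. In SCR mice at P5, 14 of the 46 junction genes tested rose and 11 fell, against 23.3% and 23.1% of all protein-coding genes tested. In A34a mice at P5, 13 rose and 11 fell, against 23.6% and 24.1% of all. At P14 the counts were 18 up and 14 down of 47 in SCR mice (all genes 34.1% and 29.1%), and 17 up and 13 down in A34a mice (all genes 37.2% and 28.5%). The share of junction genes that moved was thus near the share of all genes, and what follows concerns which of them moved. Their median log2 fold change lay at 0.04 and 0.14 at P5 and at 0.07 and 0.09 at P14 in SCR and A34a mice, beside 0.0004, -0.0014, 0.03 and 0.07 over all genes.

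SCR and A34a mice are separate animals on the same slides, and their calls can be set side by side. At P14, 15 genes rose in both (83.3% of the 18 in SCR mice, 88.2% of the 17 in A34a mice), and 13 fell in both (92.9% of 14 and 100% of 13). At P5, 10 rose in both (71.4% of 14 and 76.9% of 13) and 8 fell in both (72.7% of the 11 in each). No gene moved in opposite directions. Of all genes tested, 46.4% and 47.7% were called at P5 and 63.2% and 65.7% at P14 in SCR and A34a mice. The share of all genes called in both is not given here, so the overlap is not read as particular to junction genes. Among the shared calls at P14 the filter favoured Cldn2, Cldn20 and Gja6 as rises and Cldn13, Cldn22, Gja3 and Gja10 as falls. At P5 it favoured Gja10 and Gjc3 as falls. The split at P14 depended on the processing. With normexp background correction 16 genes rose and 7 fell in SCR mice and 14 and 8 in A34a mice. Of all genes 54% and 55.3% were then called. With quantile normalization 16 rose and 10 fell in SCR mice and 16 and 7 in A34a mice. Of all genes 59.7% and 63.1% were called there.

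**Figure D1:**
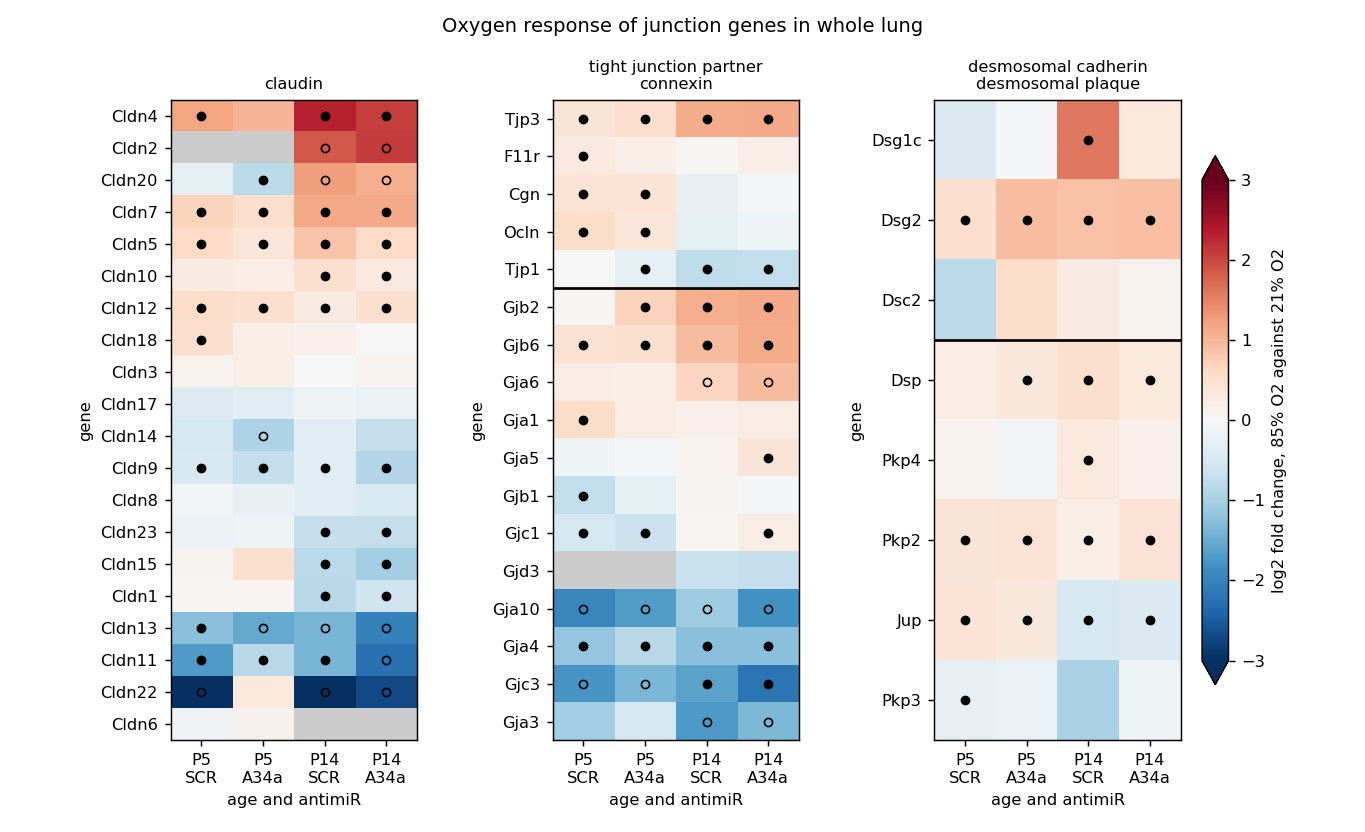
Log2 fold change of junction genes between 85% O2 and 21% O2 in the 4 oxygen comparisons (SCR and A34a mice at P5 and P14, 4 mice a group), with 1 row for each gene shown, ordered by role. Red is higher and blue lower in 85% O2, a filled dot marks an adjusted p under 0.05, an open dot such a p where fewer than 4 arrays of a group were well above background, and grey a gene that was not tested at that age. By the brightest probe of each gene, Cldn12, Cldn5, Cldn7, Dsg2, Gjb6, Pkp2 and Tjp3 rose in all 4 comparisons, and Cldn11, Cldn13, Cldn9, Gja10, Gja4 and Gjc3 fell in all 4, although Cldn13 in SCR mice at P14 had the other sign with normexp correction.

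Cldn4, a sealing claudin of epithelia that is known to be induced in injured alveolar epithelium, had the largest rise of the claudins that were measured on all arrays. Its probe lies at chr5:135421347-135421406 (mm9). At P14 its log2 levels in SCR mice were -3.65, -4.45, -4.04 and -4.23 in 21% O2 and -2.07, -1.77, -2.03 and -1.28 in 85% O2. The highest mouse in 21% O2 lay far below the lowest in 85% O2. This was a log2 fold change of 2.30 ± 0.40 SE (adjusted p = 0.000218, limma). In A34a mice at P14 the values were -4.71, -4.19, -4.37 and -3.48 in 21% O2 and -2.23, -0.79, -3.11 and -2.34 in 85% O2, again without overlap, and the log2 fold change was 2.07 ± 0.40 SE (adjusted p = 0.000434, limma). At P5 the groups overlapped: SCR mice had -2.50, -2.85, -2.89 and -2.03 in 21% O2 and -2.54, -0.35, -1.82 and -0.86 in 85% O2. Mouse 1 in 85% O2 sat among the mice in 21% O2. The P5 log2 fold change in SCR mice, 1.18 ± 0.42 SE (adjusted p = 0.0341, limma), fell short of the threshold when 1 of 5 arrays was left out, with 0.83 (adjusted p = 0.115, limma) without mouse 2 and 1.00 (adjusted p = 0.0952, limma) without mouse 4 of 85% O2, and 1.20 (adjusted p = 0.0573, limma), 1.09 (adjusted p = 0.0801, limma) and 1.07 (adjusted p = 0.0821, limma) without mouse 1, 2 or 3 of 21% O2. Without mouse 4 of 21% O2, the mouse with high skeletal muscle genes, it was 1.36 (adjusted p = 0.0283, limma). In A34a mice at P5 it was 1.02 (adjusted p = 0.0591, limma). A second probe of Cldn4 gave 1.02 (adjusted p = 0.0266, limma) in SCR mice at P5 and smaller values at P14, 1.21 (adjusted p = 0.00631, limma) in SCR and 1.17 (adjusted p = 0.00682, limma) in A34a mice.

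Cldn7, which lines the lateral membrane of airway and alveolar epithelium, rose in all 4 comparisons. At P14 the SCR mice had log2 levels of 2.46, 2.89, 2.66 and 2.81 in 21% O2 and 3.81, 3.84, 3.86 and 3.98 in 85% O2 (probe at chr11:69781255-69781314, mm9). At P5 they had 3.05, 2.96, 2.98 and 3.05 in 21% O2 and 3.67, 3.71, 3.76 and 3.54 in 85% O2. No mouse in 21% O2 reached a mouse in 85% O2 at either age. The log2 fold changes in SCR mice were 1.17 ± 0.10 SE (adjusted p = 4.86e-07, limma) at P14 and 0.66 ± 0.08 SE (adjusted p = 2.23e-05, limma) at P5, and in A34a mice 1.13 (adjusted p = 6.1e-07, limma) and 0.53 (adjusted p = 0.000234, limma). The spot of mouse 1 of the A34a mice in 21% O2 at P5 was marked as an outlier and left out, so that 3 mice stand there. With that spot kept, as in the deposited table of processed values, the A34a value at P5 was 0.29 (adjusted p = 0.152, limma).

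Cldn18, the main claudin of alveolar epithelium, and Cldn3, which type II pneumocytes carry, changed less. Cldn18 had log2 levels of 0.54, 0.54, 0.63 and 0.31 in 21% O2 and 0.86, 1.16, 1.04 and 0.97 in 85% O2 in SCR mice at P5. All 4 hyperoxic mice were above all normoxic mice there, a log2 fold change of 0.50 ± 0.10 SE (adjusted p = 0.00119, limma). In A34a mice at P5 it was 0.21 (adjusted p = 0.109, limma), and at P14 0.15 (adjusted p = 0.26, limma) in SCR and -0.0011 (adjusted p = 0.994, limma) in A34a mice. For Cldn3 no oxygen comparison passed the test, and its log2 fold changes ran from 0.0034 to 0.17, with 95% confidence intervals at P14 of -0.21 to 0.21 in SCR and -0.12 to 0.30 in A34a mice.

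Cldn5, the claudin of endothelial tight junctions that alveolar epithelium also makes, rose in all 4 comparisons. Its log2 levels at P14 in SCR mice were 5.99, 5.91, 6.10 and 5.99 in 21% O2 and 6.89, 6.84, 6.84 and 6.84 in 85% O2 (probe at chr16:18778046-18778105, mm9). The hyperoxic mice lay close together and all above the normoxic ones. The log2 fold change was 0.85 ± 0.06 SE (adjusted p = 1.61e-07, limma), and in A34a mice 0.59 (adjusted p = 3.71e-06, limma). At P5 it was 0.60 (adjusted p = 0.000128, limma) in SCR and 0.36 (adjusted p = 0.00467, limma) in A34a mice. Of 10 endothelial marker genes 5 fell and 3 rose at P14 in each kind of mouse, and their mean level in SCR mice lay between 3.52 and 3.57 in 21% O2 and between 3.06 and 3.16 in 85% O2. The part of endothelial or epithelial cells in the Cldn5 values was not tested. Cldn12, a claudin without the usual tail that binds ZO proteins, also rose throughout, by 0.55, 0.48, 0.28 and 0.48 in log2 (limma adjusted p = 1.32e-05, 3.92e-05, 0.00564 and 8.43e-05; P5 SCR, P5 A34a, P14 SCR, P14 A34a).

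Of the claudins that make pores, Cldn10 rose and Cldn15 fell at P14. Cldn10, which airway secretory cells express, had log2 levels of 0.01, 0.08, 0.13 and 0.02 in 21% O2 and 0.58, 0.40, 0.67 and 0.55 in 85% O2 in SCR mice, with no overlap and a log2 fold change of 0.49 ± 0.12 SE (adjusted p = 0.00274, limma). In A34a mice it was 0.29 (adjusted p = 0.0475, limma) with overlapping groups, and the call held in only 2 of the 8 fits that left out an array. It was 0.16 (adjusted p = 0.158, limma) without mouse 4 of 85% O2, in which the airway secretory genes were high. At P5 in SCR mice Cldn10 was 0.25 (adjusted p = 0.0841, limma), or 0.34 (adjusted p = 0.0202, limma) without mouse 4 of 21% O2. Cldn15, a cation channel of the gut, had -0.82, -0.93, -0.97 and -0.17 in 21% O2 and -1.17, -2.03, -1.66 and -1.28 in 85% O2 in SCR mice. Each hyperoxic mouse was below each normoxic one. This gave -0.81 ± 0.27 SE (adjusted p = 0.0166, limma), or -0.65 (adjusted p = 0.0572, limma) without mouse 2 of 85% O2 and -0.63 (adjusted p = 0.0575, limma) without mouse 4 of 21% O2, and -1.03 (adjusted p = 0.0038, limma) in A34a mice. Cldn2, the pore of leaky epithelia, was dim. It was well above background on 3 of 4 normoxic arrays of SCR mice and 1 of 4 of A34a mice at P14, and on all hyperoxic ones. Its levels were -5.76, -6.25, -6.01 and -6.69 in 21% O2 and -4.00, -4.49, -4.01 and -4.78 in 85% O2 in SCR mice. All hyperoxic mice were higher in both (limma adjusted p = 0.0013 and 0.000435), but Cldn2 entered the test through the hyperoxic groups alone, which favoured this direction.

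Cldn11, the claudin of myelin and of Sertoli cells, fell in all 4 comparisons. In SCR mice its log2 levels at P5 were -2.07, -3.03, -3.13 and -2.10 in 21% O2 and -4.08, -4.21, -4.49 and -4.35 in 85% O2 (probe at chr3:31062922-31062981, mm9). At P14 they were -3.03, -3.47, -3.46 and -3.69 in 21% O2 and -4.91, -4.93, -4.85 and -4.58 in 85% O2. The groups were apart at both ages. The log2 fold changes were -1.70 ± 0.22 SE (adjusted p = 3.94e-05, limma) and -1.41 ± 0.26 SE (adjusted p = 0.000346, limma), and in A34a mice -0.83 (adjusted p = 0.00787, limma) at P5 and -2.24 (adjusted p = 5.84e-06, limma) at P14, where 3 of 4 hyperoxic arrays were well above background. With normexp correction the falls were smaller, -0.43 (adjusted p = 0.0214, limma) in SCR mice at P14. Of 8 genes of nerve and Schwann cells, 5 fell in SCR mice at P5 and 4 at P14; the part of this list in the fall of Cldn11 was not tested.

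Cldn22 was lower in 85% O2 in SCR mice at both ages. At P5 the SCR mice in 21% O2 had log2 levels of -3.28, -5.35, -5.81 and -3.48 and no array of SCR mice in 85% O2 was well above background. It was at least 3.47-fold lower in 85% O2 (limma adjusted p = 0.00173). At P14 the SCR mice had -2.21, -2.33, -2.36 and -2.79 in 21% O2 and -5.74, -6.44, -5.06 and -7.60 in 85% O2, with 2 of 4 hyperoxic arrays above background and no overlap (limma adjusted p = 0.00172). The log2 fold change in A34a mice at P14 was -2.70 (adjusted p = 0.013, limma) with overlapping groups, -0.81 (adjusted p = 0.0363, limma) with normexp correction, -2.01 (adjusted p = 0.0542, limma) with quantile normalization and -3.68 (adjusted p = 0.000265, limma) without mouse 4 of 85% O2. Its level moved with the genes of airway secretory cells: their mean over 8 genes was 1.06 to 3.84 in normoxic SCR mice at P5, -0.48 to 0.29 in normoxic A34a mice, where no array measured Cldn22 above background, 0.45 to 1.32 in hyperoxic SCR mice, and 3.97 or higher against 0.95 to 2.17 at P14 in SCR mice. The part of airway tissue in the sampled lung was not tested.

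Cldn1, Cldn23 and Cldn13 were dim genes that were lower in 85% O2. Cldn1, a sealing claudin best known from the skin barrier, had -3.96, -3.83, -3.93 and -4.17 in 21% O2 and -4.83, -4.57, -4.91 and -4.93 in 85% O2 in SCR mice at P14. All hyperoxic mice were lower, a log2 fold change of -0.84 ± 0.12 SE (adjusted p = 3.8e-05, limma), and in A34a mice it was -0.60 (adjusted p = 0.000476, limma). This fall depended on the scaling: with normexp correction it was -0.13 (adjusted p = 0.4, limma) in SCR and -0.11 (adjusted p = 0.451, limma) in A34a mice, and with quantile normalization -0.45 (adjusted p = 0.0658, limma) in SCR mice and 0.19 (adjusted p = 0.414, limma), a value of the other sign, in A34a mice. Cldn23 was -0.69 (adjusted p = 0.00015, limma) and -0.72 (adjusted p = 8.74e-05, limma) in SCR and A34a mice at P14, with no overlap in either. Cldn13 was at least 1.52-fold lower in SCR mice (limma adjusted p = 0.0026) and at least 2.09-fold lower in A34a mice (limma adjusted p = 0.000116) at P14, where no hyperoxic array was above background. With normexp correction the Cldn13 value in SCR mice had the other sign, 0.06 (adjusted p = 0.844, limma), and the call in A34a mice was lost (limma adjusted p = 0.374). Cldn9 fell in all 4 comparisons, from -0.34 to -0.89 in log2, and at P14 in SCR mice this held in 3 of the 8 fits with an array left out. Cldn20 was higher at P14 (limma adjusted p = 0.000889 in SCR and 0.00187 in A34a mice), but at 21% O2 it was above background on 3 of 4 arrays of SCR mice and on none of A34a mice. At P5 Cldn20 fell in A34a mice, with a value of -0.80 (adjusted p = 0.0138, limma), and was -0.28 (adjusted p = 0.365, limma) in SCR mice. Cldn14, a claudin of the inner ear and kidney, fell in A34a mice at P5 (adjusted p = 0.013, limma), where 3 of 4 hyperoxic arrays were above background, and passed in no other oxygen comparison. With normexp correction that value was -0.29 (adjusted p = 0.114, limma). Cldn8, Cldn17 and Cldn6 passed in no oxygen comparison in which they were tested. Without mouse 4 of the A34a mice in 85% O2 at P14, Cldn8 there was -0.81 (adjusted p = 0.000895, limma) and Cldn14 -0.97 (adjusted p = 0.0219, limma), both past the threshold.

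The scaffold proteins split. Tjp1 encodes ZO-1, which joins claudins and occludin to actin, and it fell at P14. Its SCR mice had log2 levels of 4.11, 4.13, 4.15 and 4.16 in 21% O2 and 3.38, 3.41, 3.30 and 3.39 in 85% O2 at P14 (probe at chr7:72441126-72441185, mm9). The 4 normoxic mice differed by very little and the hyperoxic mice were all far below them. The log2 fold change was -0.77 ± 0.08 SE (adjusted p = 3.05e-06, limma), and in A34a mice -0.73 ± 0.08 SE (adjusted p = 4.18e-06, limma). At P5 the SCR mice had 3.82, 4.02, 3.84 and 3.74 in 21% O2 and 3.80, 3.90, 3.88 and 3.74 in 85% O2, which overlapped, with a log2 fold change of -0.02 (adjusted p = 0.819, limma), while A34a mice fell by 0.30 on the log2 scale (limma adjusted p = 0.00365). Tjp3, the ZO protein found in epithelia, went the other way. Its log2 levels at P14 were 1.77, 1.78, 1.83 and 1.53 in 21% O2 and 2.77, 2.87, 2.86 and 2.85 in 85% O2 in SCR mice (probe at chr10:80735967-80736026, mm9). Every hyperoxic mouse was above every normoxic one, and the log2 fold change was 1.11 ± 0.13 SE (adjusted p = 7.32e-06, limma), with 1.13 (adjusted p = 5.37e-06, limma) in A34a mice. At P5 it was 0.39 (adjusted p = 0.0088, limma) and 0.50 (adjusted p = 0.00152, limma).

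Occludin and cingulin rose at P5 and not at P14. Ocln had log2 levels of -0.90, -0.63, -0.78 and -0.89 in 21% O2 and -0.63, -0.01, -0.21 and -0.13 in 85% O2 in SCR mice at P5. The hyperoxic mice were all at or above the highest normoxic mouse, and the log2 fold change was 0.55 ± 0.13 SE (adjusted p = 0.00383, limma). In A34a mice at P5 it was 0.36 (adjusted p = 0.0377, limma), a call that 3 of 8 fits with an array left out kept. At P14 it was -0.30 (adjusted p = 0.089, limma) and -0.13 (adjusted p = 0.458, limma), and a second probe of Ocln fell at P14, -0.22 (adjusted p = 0.0429, limma) and -0.49 (adjusted p = 0.000214, limma), after 0.41 (adjusted p = 0.00218, limma) and 0.12 (adjusted p = 0.287, limma) at P5. Cgn had 2.19, 2.31, 2.08 and 2.27 in 21% O2 and 2.56, 2.75, 2.62 and 2.59 in 85% O2 in SCR mice at P5, without overlap. Its log2 fold change was 0.42 ± 0.09 SE (adjusted p = 0.00189, limma) there and 0.40 (adjusted p = 0.00228, limma) in A34a mice, against -0.23 (adjusted p = 0.127, limma) and -0.06 (adjusted p = 0.671, limma) at P14. F11r, which also guides leukocytes across the endothelium, was 0.29 (adjusted p = 0.0308, limma) in SCR mice at P5, and 0.27 (adjusted p = 0.0725, limma) without mouse 2 and 0.26 (adjusted p = 0.0775, limma) without mouse 3 of 21% O2 and 0.18 (adjusted p = 0.0902, limma) without mouse 4 of 85% O2. With normexp correction the P5 value was 0.22 (adjusted p = 0.0731, limma) and with quantile normalization 0.23 (adjusted p = 0.0805, limma). In the other oxygen comparisons F11r ran from 0.07 to 0.20 and did not pass.

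**Figure D2:**
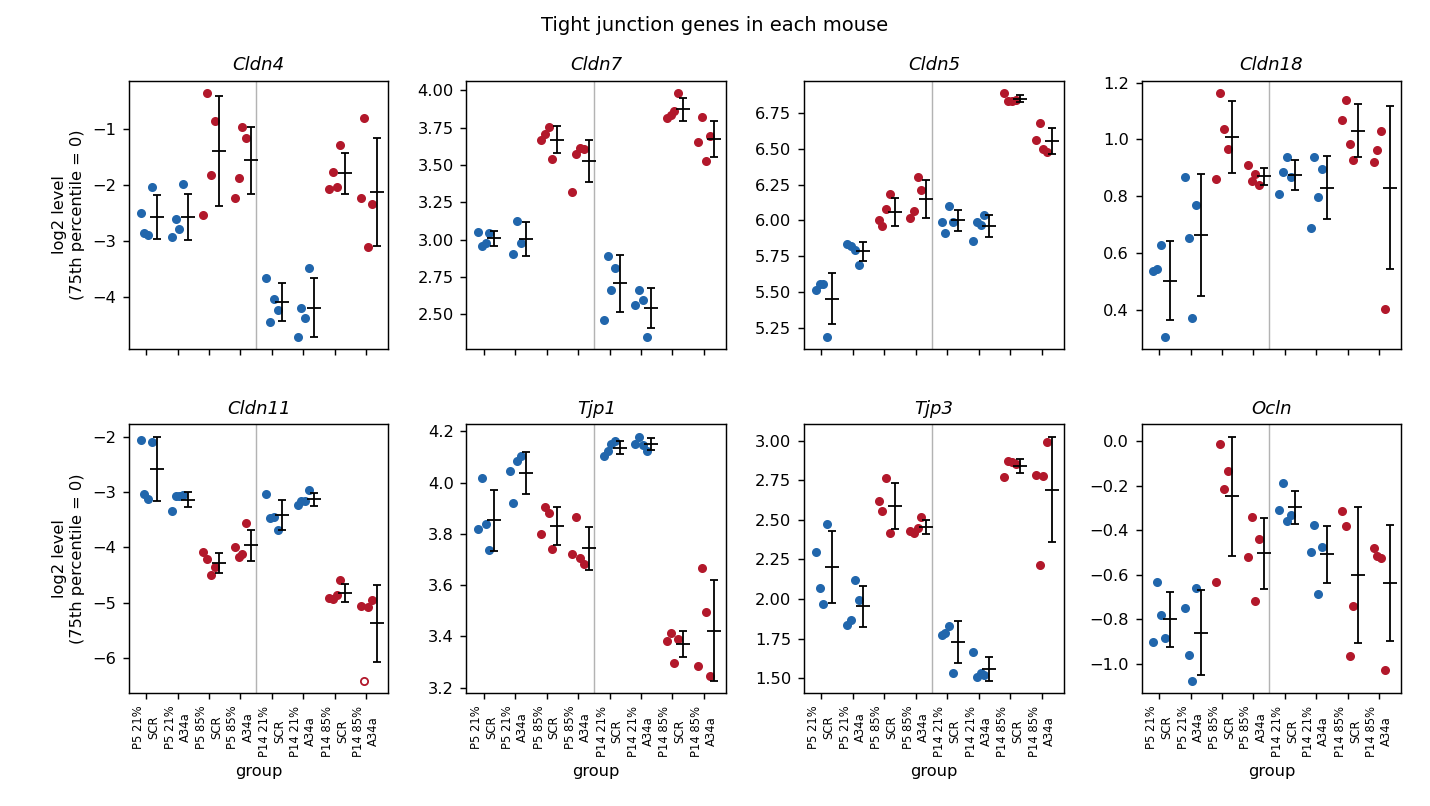
Log2 level, against the array's 75th percentile, of Cldn4, Cldn7, Cldn5, Cldn18, Cldn11, Tjp1, Tjp3 and Ocln in each of the 32 mice, by age and oligonucleotide. Blue points are mice in 21% O2 and red points mice in 85% O2, open points were not well above background, and black bars give the mean and SD of 4 mice (3 for Cldn7 in A34a mice in 21% O2 at P5). At P14 the red points of Cldn4, Cldn7, Cldn5 and Tjp3 lie above all blue ones and those of Cldn11 and Tjp1 below them.

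Promoters of Cldn4, Cldn7, Ocln and Tjp3 are shown as examples of genes that rose in 85% O2, each chosen because it holds letters that regulators of epithelial junctions are known to bind. RefSeq promoters (GRCm38.p6) were found for 34 of the 48 genes, 48 promoters in all, and the 250 bases before each start were read on both strands. AACCGG is bound by Grainyhead-like factors, which drive epithelial junction genes, TGANTCA by AP-1, a stress-responsive factor, and CAGGTG by Snail and Zeb, repressors of epithelial genes. AACCGG was in 5 of the 48 promoters (10.4%) and in 5.62% of all 32851 promoters, TGANTCA in 4 (8.33%) and 6.75%, and CAGGTG in 12 (25%) and 17.2%. The core of the antioxidant response element, TGACNNNGC, was in 2 of the 48 (4.17%) and in 10.2% of all. Capitals mark these letters in either orientation, and none of the matches shown overlap. Cldn4 (chr5:134946935-134947184, minus strand) holds TGANTCA at 2 places and CAGGTG once, Cldn7 (chr11:69965171-69965420, plus strand) AACCGG next to CAGGTG and another CAGGTG, Ocln (chr13:100552499-100552748, minus strand) AACCGG and 2 CAGGTG, and Tjp3 (chr10:81291268-81291517, minus strand) CAGGTG once. The second promoters listed for Cldn7 and Ocln hold none of these letters, and that of Tjp3 holds CAGGTG once. Genes that fell hold them too: TGANTCA is in the promoter of Cldn15, and CAGGTG is at 3 places in that of Gja3. All are written 5′ to 3′ on the strand of the gene.
Cldn4: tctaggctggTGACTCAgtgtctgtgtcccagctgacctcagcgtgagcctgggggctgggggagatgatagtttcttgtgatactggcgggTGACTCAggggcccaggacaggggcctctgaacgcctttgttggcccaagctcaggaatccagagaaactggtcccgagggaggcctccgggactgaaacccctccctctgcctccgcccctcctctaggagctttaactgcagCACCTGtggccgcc
Cldn7: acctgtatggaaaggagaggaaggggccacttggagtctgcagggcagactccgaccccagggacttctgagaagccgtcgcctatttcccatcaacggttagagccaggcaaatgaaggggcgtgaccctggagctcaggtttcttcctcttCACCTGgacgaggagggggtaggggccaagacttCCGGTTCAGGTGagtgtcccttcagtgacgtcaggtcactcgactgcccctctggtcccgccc
Ocln: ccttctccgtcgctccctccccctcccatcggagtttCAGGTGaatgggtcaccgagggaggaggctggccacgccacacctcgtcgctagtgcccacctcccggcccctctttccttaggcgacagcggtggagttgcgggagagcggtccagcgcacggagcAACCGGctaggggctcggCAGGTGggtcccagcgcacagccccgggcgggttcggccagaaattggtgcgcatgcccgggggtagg
Tjp3: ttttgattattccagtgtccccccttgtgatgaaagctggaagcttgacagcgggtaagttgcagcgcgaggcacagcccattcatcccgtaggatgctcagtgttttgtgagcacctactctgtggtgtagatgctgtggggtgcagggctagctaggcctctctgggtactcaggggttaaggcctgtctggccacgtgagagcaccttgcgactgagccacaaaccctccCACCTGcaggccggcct

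A match describes the letters of the window, and binding was not measured. The gene of the Grainyhead-like factor Grhl2, on the list of genes that lung epithelia share, had a log2 fold change of 0.18 (adjusted p = 0.169, limma) in SCR mice at P14. Its other oxygen comparisons are not given here, and its part in the oxygen response was not tested.

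Among the connexins, the endothelial Gja4 fell and the epithelial Gjb2 and Gjb6 rose. Gja4, a connexin of arterial endothelium, had log2 levels of 3.24, 3.24, 3.31 and 3.27 in 21% O2 and 2.08, 2.42, 1.80 and 2.05 in 85% O2 in SCR mice at P5 (probe at chr4:126988848-126988907, mm9). At P14 they were 3.51, 3.48, 3.68 and 3.36 in 21% O2 and 2.30, 2.06, 2.38 and 2.28 in 85% O2. The mice in 85% O2 were below all mice in 21% O2 at both ages. The log2 fold changes were -1.18 ± 0.13 SE (adjusted p = 8.5e-06, limma) and -1.25 ± 0.09 SE (adjusted p = 1.51e-07, limma), and in A34a mice -0.83 (adjusted p = 0.000156, limma) and -1.26 (adjusted p = 1.35e-07, limma). Of 5 arterial endothelial genes 3 fell in SCR mice at P14, and their mean level lay between 2.01 and 2.13 in 21% O2 and between 1.25 and 1.36 in 85% O2. The part of fewer arterial cells was not tested. Gja5, the other connexin of that endothelium, was -0.13 (adjusted p = 0.451, limma) in SCR and -0.03 (adjusted p = 0.878, limma) in A34a mice at P5. At P14 it was 0.11 (adjusted p = 0.382, limma) and 0.39 (adjusted p = 0.00614, limma), the latter 0.27 (adjusted p = 0.0543, limma) with quantile normalization. Its probes disagreed: a second gave 0.98 (adjusted p = 0.00274, limma) and 0.62 (adjusted p = 0.0323, limma) at P14, and the remaining one gave -0.31 (adjusted p = 0.173, limma) and -0.52 (adjusted p = 0.0274, limma) at P5 and did not pass at P14.

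Gjb2, a connexin of epithelia, was higher at P14. It had log2 levels of -1.98, -1.94, -1.92 and -2.12 in 21% O2 and -0.88, -0.97, -0.89 and -0.85 in 85% O2 in SCR mice (probe at chr14:57717629-57717688, mm9). The oxygen levels did not overlap. The log2 fold change was 1.09 ± 0.08 SE (adjusted p = 9.72e-08, limma), and in A34a mice 1.15 (adjusted p = 6.05e-08, limma). At P5 the A34a mice rose as well, by 0.69 (adjusted p = 0.00935, limma), while the SCR mice had 0.04 (adjusted p = 0.869, limma). Mouse 4 of the normoxic SCR mice was high, at -1.50, and without it the SCR value at P5 was 0.29 (adjusted p = 0.0641, limma). That mouse also had a mean of 1.07 over 7 genes of basal and squamous epithelium, where the other mice of its group were below 0. Gjb6 rose in all 4 comparisons, by 0.46 (adjusted p = 0.00398, limma) and 0.48 (adjusted p = 0.00263, limma) at P5 and by 0.96 (adjusted p = 1.8e-06, limma) and 1.11 (adjusted p = 4.74e-07, limma) at P14.

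Gjc1, Gja1 and Gjb1 changed at P5 and not at P14 in SCR mice, and others were dim. Gjc1, a connexin of smooth muscle and conducting heart tissue, had log2 levels of 1.97, 2.04, 2.04 and 1.86 in 21% O2 and 1.65, 1.41, 1.40 and 1.33 in 85% O2 in SCR mice at P5, without overlap. Its log2 fold change was -0.53 ± 0.08 SE (adjusted p = 0.000206, limma), and -0.64 (adjusted p = 3.56e-05, limma) in A34a mice. At P14 it was 0.06 (adjusted p = 0.56, limma) and 0.22 (adjusted p = 0.0331, limma), the latter a call that 4 of 8 fits with an array left out kept, with 0.18 (adjusted p = 0.0906, limma) without mouse 4 of 85% O2 and 0.14 (adjusted p = 0.178, limma) with quantile normalization. Of 8 genes of smooth muscle, 6 fell in SCR mice (median log2 fold change -0.48) and 5 in A34a mice (-0.35) at P5, while at P14 3 rose and 1 fell in SCR mice and 4 rose and 1 fell in A34a mice. Of 8 genes of heart muscle, 7 fell in SCR mice (median -1.70) and 2 in A34a mice (-1.02) at P5, and 5 and 4 fell at P14. The part of either tissue in the Gjc1 values was not tested. Gja1, the most widely expressed connexin, was 0.54 (adjusted p = 0.000354, limma) at P5 in SCR mice and between 0.15 and 0.23 in the other comparisons, which did not pass. Gjb1 was -0.73 (adjusted p = 0.016, limma) at P5 in SCR mice and passed in no other. Gjc3, known from Schwann cells, fell in all 4, and at P14 its levels in SCR mice were -3.14, -3.29, -3.71 and -2.43 in 21% O2 and -4.69, -4.43, -4.63 and -5.28 in 85% O2, a log2 fold change of -1.62 (adjusted p = 0.000115, limma), which was -0.47 (limma adjusted p = 0.0646) with normexp correction. Gja10 was above background on no hyperoxic array and was at least 2.47-fold lower in SCR mice at P5 (limma adjusted p = 0.00236), having entered the test through normoxic groups alone, which favoured a fall. Gja10 was also called lower in A34a mice at P14 (limma adjusted p = 0.001), where 2 of 4 normoxic and no hyperoxic arrays were above background, and the call was lost with normexp correction (limma adjusted p = 0.751) and with quantile normalization (limma adjusted p = 0.154). Gja3, a connexin of the lens, and Gja6 were called at P14 in both kinds of mouse, Gja3 as lower and Gja6 as higher, with fewer than 4 arrays above background in a group. The Gja3 value in SCR mice was -1.73 (adjusted p = 0.0119, limma), and -0.27 (adjusted p = 0.311, limma) with normexp correction and -1.27 (adjusted p = 0.0572, limma) with quantile normalization. Gjd3 was tested at P14 alone and did not pass, with -0.68 (adjusted p = 0.268, limma) in SCR and -0.70 (adjusted p = 0.247, limma) in A34a mice.

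Of the desmosome genes, the cadherin of simple epithelia rose and the plaque proteins differed. Dsg2 had log2 levels of -3.32, -3.66, -3.54 and -3.43 in 21% O2 and -2.53, -2.59, -2.54 and -2.73 in 85% O2 in SCR mice at P14. All hyperoxic mice were higher, and the log2 fold change was 0.89 ± 0.11 SE (adjusted p = 1.75e-05, limma), with 0.91 (adjusted p = 1.26e-05, limma) in A34a mice. At P5 it was 0.51 (adjusted p = 0.0137, limma) and 0.92 (adjusted p = 0.000193, limma). A second, dimmer probe of Dsg2 gave 2.41 (adjusted p = 0.000411, limma) in SCR mice at P14, where 1 of 4 normoxic arrays was above background. It was called higher in A34a mice at P14 as well (limma adjusted p = 0.00195), where no normoxic array was above background. At P5 it did not pass, with 0.43 (adjusted p = 0.247, limma) and 0.59 (adjusted p = 0.111, limma). Dsg1c, a desmoglein of skin, had -3.07, -3.53, -4.13 and -4.04 in 21% O2 and -2.12, -2.05, -2.47 and -1.82 in 85% O2 in SCR mice at P14, a log2 fold change of 1.58 ± 0.56 SE (adjusted p = 0.0243, limma) that 5 of 8 fits with an array left out kept, and 0.32 (adjusted p = 0.632, limma) in A34a mice, where mouse 4 in 85% O2 was the lowest of all and the value was 1.08 (adjusted p = 0.00343, limma) without it. Dsc2 passed in no comparison.

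Plakoglobin, which desmosomes share with adherens junctions, turned between the ages. Jup had log2 levels of -2.29, -2.20, -2.18 and -2.38 in 21% O2 and -2.11, -1.79, -1.77 and -1.70 in 85% O2 in SCR mice at P5 (probe at chr11:100238038-100238097, mm9). At P14 they were -1.40, -1.43, -1.32 and -1.48 in 21% O2 and -1.82, -1.61, -1.97 and -2.13 in 85% O2. The hyperoxic mice were the higher ones at P5 and the lower ones at P14, with no overlap at either age. The log2 fold changes were 0.42 ± 0.09 SE (adjusted p = 0.00178, limma) at P5 and -0.48 ± 0.10 SE (adjusted p = 0.000852, limma) at P14, and in A34a mice 0.33 (adjusted p = 0.0075, limma) and -0.44 (adjusted p = 0.00122, limma). With quantile normalization the A34a value at P14 was -0.23 (adjusted p = 0.0975, limma). Desmoplakin rose at P14, with 0.87, 0.74, 0.77 and 0.54 in 21% O2 and 1.21, 1.17, 1.13 and 1.29 in 85% O2 in SCR mice, a log2 fold change of 0.47 ± 0.09 SE (adjusted p = 0.000448, limma), and 0.32 (adjusted p = 0.00608, limma) in A34a mice. At P5 Dsp was 0.23 (adjusted p = 0.144, limma) in SCR mice, and 0.39 (adjusted p = 0.00135, limma) without mouse 4 of 21% O2. In A34a mice at P5 it was 0.35 (adjusted p = 0.0303, limma), or 0.31 (adjusted p = 0.081, limma) without mouse 1 of 21% O2 and 0.35 (adjusted p = 0.0568, limma) and 0.34 (adjusted p = 0.0622, limma) without mouse 2 or 4 of 85% O2. A second probe of Dsp gave 1.08 (adjusted p = 0.000108, limma) in SCR and 0.73 (adjusted p = 0.00206, limma) in A34a mice at P14, and 0.05 (adjusted p = 0.761, limma) and 0.10 (adjusted p = 0.51, limma) at P5.

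Pkp2, the plakophilin of heart and simple epithelia, had log2 levels of 2.06, 2.23, 2.10 and 1.96 in 21% O2 and 2.38, 2.59, 2.48 and 2.40 in 85% O2 in SCR mice at P5, with no overlap. It rose by 0.38 (adjusted p = 0.000495, limma) and 0.44 (adjusted p = 0.000118, limma) at P5 and by 0.21 (adjusted p = 0.0314, limma) and 0.43 (adjusted p = 0.000231, limma) at P14, and of these the P14 call in SCR mice held in 4 of 8 fits with an array left out and was 0.10 (adjusted p = 0.254, limma) with quantile normalization. Pkp3 was -0.24 (adjusted p = 0.0249, limma) in SCR mice at P5, and -0.22 (adjusted p = 0.0591, limma) and -0.18 (adjusted p = 0.0781, limma) without mouse 3 or 4 of 21% O2 and -0.18 (adjusted p = 0.0696, limma) without mouse 1 of 85% O2. At P14 a single mouse set its value: mouse 1 of the hyperoxic SCR mice lay at -1.75 and the others between 1.55 and 1.68, and the log2 fold change of -0.97 (adjusted p = 0.153, limma) became -0.13 (adjusted p = 0.458, limma) without it. Pkp4, which also sits in adherens junctions, was 0.31 (adjusted p = 0.00806, limma) in SCR mice at P14 and passed in no other oxygen comparison.

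**Figure D3:**
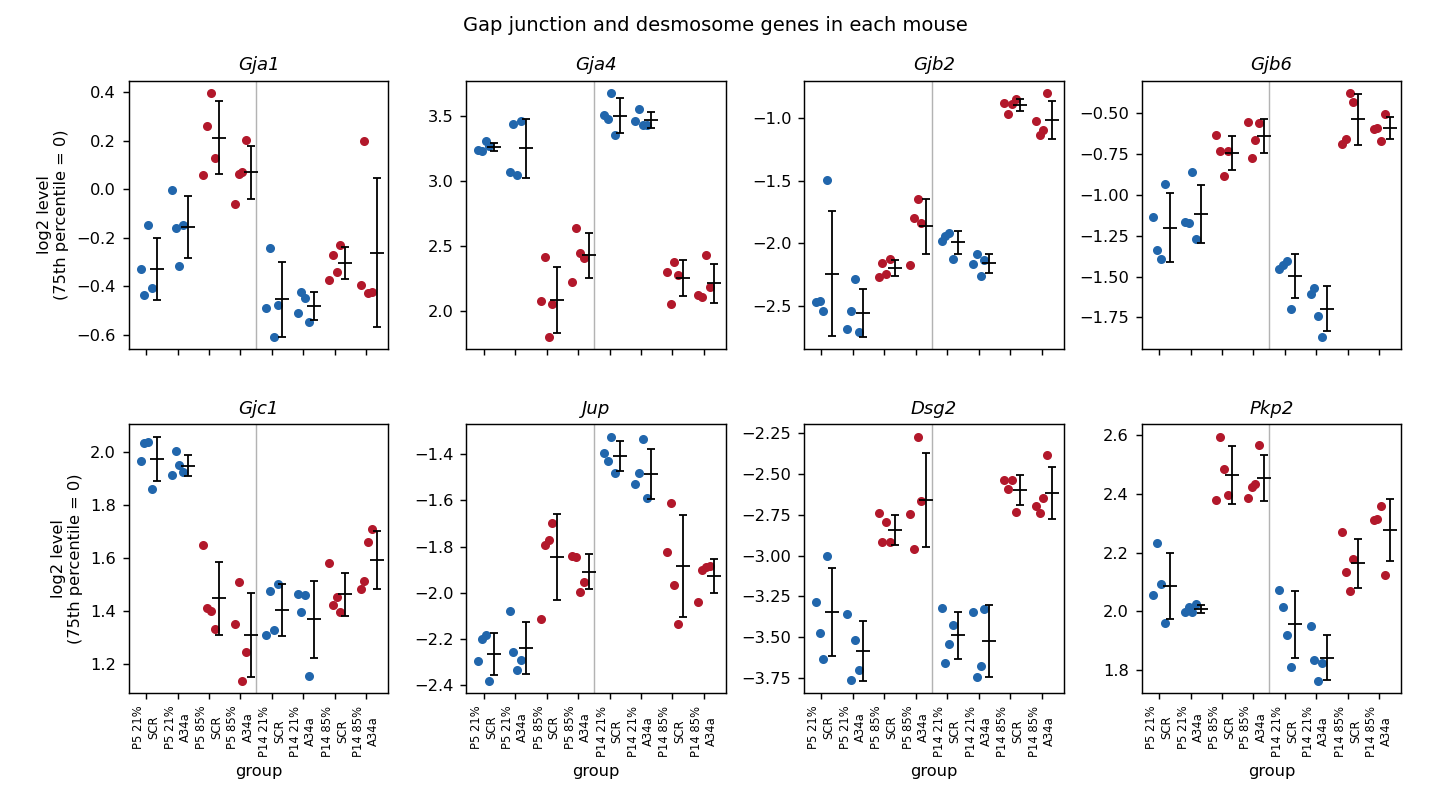
Log2 level, against the array's 75th percentile, of the connexins Gja1, Gja4, Gjb2, Gjb6 and Gjc1 and of the desmosome genes Jup, Dsg2 and Pkp2 in each of the 32 mice, by age and oligonucleotide. Blue points are mice in 21% O2, red points mice in 85% O2, open points were not well above background, and black bars give the mean and SD of 4 mice. Red lies below blue for Gja4 at both ages and above blue for Gjb2 and Gjb6 at P14, and the order of the 2 colours for Jup turns between P5 and P14.

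Other genes of these pathways and of the epithelium were counted beside them. Of all protein-coding genes tested, 23.3% rose and 23.1% fell in SCR mice at P5, and 34.1% and 29.1% at P14. In A34a mice these shares were 23.6% and 24.1% at P5 and 37.2% and 28.5% at P14. Of 10 genes that all lung epithelia share, 8 and 8 rose at P5 and 7 and 9 at P14 in SCR and A34a mice, and none fell. Their mean level in SCR mice at P14 lay between 1.48 and 1.56 in 21% O2 and between 2.18 and 2.31 in 85% O2, and Epcam, for example, was 0.95 (adjusted p = 9.22e-07, limma). The part of the epithelial share of the tissue in the rise of the epithelial junction genes was not tested. Of 10 type I pneumocyte genes 4 rose and 2 fell in SCR mice at P14, and of 10 type II pneumocyte genes 3 rose and 6 fell. Of 22 further genes of tight junctions and cell polarity that were tested, 12 rose and 4 fell in SCR mice at P5 and 14 rose and 4 fell at P14, with Magi1 (1.03, limma adjusted p = 6.15e-07), Magi3 (1.15, limma adjusted p = 5.66e-06) and Cgnl1 (0.74, limma adjusted p = 0.00655), all scaffolds of the junction, among those that rose at P14. In A34a mice the counts were 8 up and 4 down at P5 and 13 and 5 at P14.

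Of 16 adherens junction genes tested, 3 rose and 2 fell in SCR mice at P5 (all genes 23.3% and 23.1%), and 7 rose and 3 fell at P14 (all genes 34.1% and 29.1%). Of 8 genes for keratins and for proteins linked to the desmosomal plaque, 4 rose and 1 fell at P14 in SCR mice (all genes 34.1% and 29.1%), Krt8 by 0.73 (adjusted p = 0.00924, limma) and Krt18 by 0.99 (adjusted p = 0.000328, limma), the keratins of simple epithelia. The lists share genes: Krt8, Krt18 and Krt19 are on the epithelial list too, as is Cdh1 of the adherens junction list. The pannexins form channels related to those of connexins, and Panx1, the 1 of 3 that was tested, was 0.79 (adjusted p = 1.07e-07, limma) at P14 and 0.01 (adjusted p = 0.891, limma) at P5. Over the list of 22 tight junction and polarity genes the median log2 fold change in SCR mice at P14 was 0.38, beside 0.82 for the epithelial list and 0.03 over all genes.

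Whether oxygen acted differently at the 2 ages was tested as a difference of the oxygen effects in SCR mice, P14 minus P5. It passed for 16 of 48 junction genes, 9 with a more positive and 7 with a more negative effect at P14, against 44.3% of all protein-coding genes. The oxygen effect was more negative at P14 for Jup (-0.90 ± 0.13 SE, limma adjusted p = 9.51e-06), Ocln (-0.86 ± 0.20 SE, limma adjusted p = 0.00147), Tjp1 (-0.74 ± 0.10 SE, limma adjusted p = 5.1e-06) and Cgn (-0.64 ± 0.15 SE, limma adjusted p = 0.0016). It was more positive for Gjb2 (1.05 ± 0.21 SE, limma adjusted p = 0.000383), Tjp3 (0.72 ± 0.17 SE, limma adjusted p = 0.00135), Gjc1 (0.59 ± 0.12 SE, limma adjusted p = 0.000328), Gjb6 (0.50 ± 0.15 SE, limma adjusted p = 0.00733) and Cldn7 (0.51 ± 0.13 SE, limma adjusted p = 0.00248). Cldn7, Tjp3 and Gjb6, raised at P5, were thus raised further at P14, and occludin, cingulin and plakoglobin were not. Mouse 4 of the normoxic SCR mice at P5 was high in Gjb2, and without it the difference was 0.80 (adjusted p = 9.27e-05, limma). Without that mouse Cldn5, at 0.34 (adjusted p = 0.00713, limma), and Cldn23, at -0.74 (adjusted p = 0.00298, limma), also passed, and Gja1, at -0.36 (adjusted p = 0.0821, limma), and Cldn12, at -0.23 (adjusted p = 0.0549, limma), did not. For the second probes of Dsg2 and Dsp the test gave 1.98 (adjusted p = 0.00611, limma) and 1.03 (adjusted p = 0.000502, limma), and for the brighter ones 0.38 (adjusted p = 0.114, limma) and 0.24 (adjusted p = 0.21, limma). For Cldn4 the test gave 1.12 (adjusted p = 0.138, limma). Each age and oxygen level was on a slide of its own, so that this difference and the slides cannot be told apart.

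**Figure D4:**
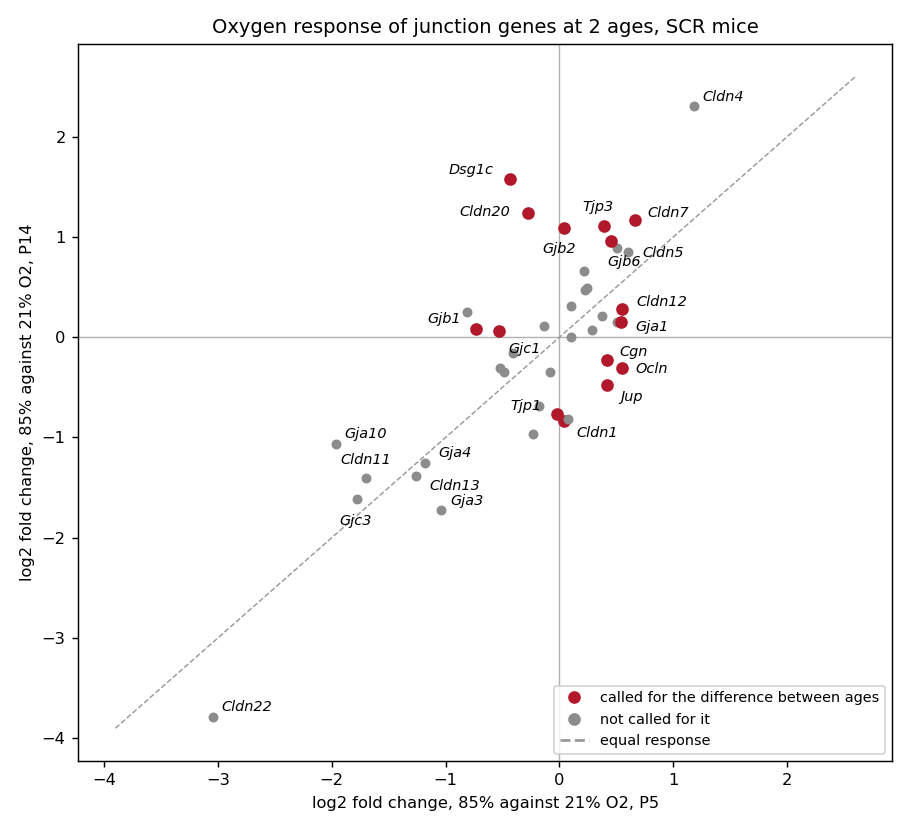
Log2 fold change between 85% O2 and 21% O2 in SCR mice at P5 (horizontal axis) and at P14 (vertical axis), 1 point a junction gene, 4 mice a group. Red points passed the test of the difference between the ages. Jup, Ocln, Tjp1 and Cgn lie below the diagonal, and Gjb2, Tjp3, Gjb6 and Cldn7 above it.

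Between P5 and P14 in SCR mice in 21% O2, 14 of 48 junction genes rose and 15 fell, against 28.2% and 25.4% of all protein-coding genes, and their median was -0.11 beside 0.02 over all. The arrays of each age lay on slides of their own and were scanned on separate days, so that age, slide and scan day cannot be told apart. Dsg1c fell most among those above background on all arrays, from -0.98, -0.91, -0.83 and -1.35 at P5 to -3.07, -3.53, -4.13 and -4.04 at P14, a log2 fold change of -2.67 ± 0.45 SE (adjusted p = 2.43e-05, limma). Cldn4 went from -2.50, -2.85, -2.89 and -2.03 to -3.65, -4.45, -4.04 and -4.23, or -1.52 ± 0.42 SE (adjusted p = 0.00419, limma). Both were lower in every P14 mouse than in any P5 mouse. A second probe of Cldn4 gave a smaller value with age, -0.52 (adjusted p = 0.222, limma), which did not pass. Cldn7 (-0.30, limma adjusted p = 0.00656) and Tjp3 (-0.47, limma adjusted p = 0.00181) fell with age. Without mouse 4 at P5 the calls for Dsp, -0.13 (adjusted p = 0.199, limma), and Gjb6, -0.21 (adjusted p = 0.0974, limma), were lost, and Gjb2, 0.50 (adjusted p = 0.000283, limma), and Cldn23, 0.37 (adjusted p = 0.0277, limma), passed. Cldn6, a claudin of embryonic epithelia, fell (-1.43, limma adjusted p = 0.00034, 3 of 4 arrays above background at P14). Jup rose by 0.86 ± 0.09 SE (adjusted p = 3.95e-08, limma), Cldn5 by 0.55 (adjusted p = 2.03e-06, limma), Ocln by 0.50 (adjusted p = 0.00465, limma), Cldn18 by 0.37 (adjusted p = 0.00612, limma) and Tjp1 by 0.28 (adjusted p = 0.00225, limma). Gjd3 was at least 2.9-fold higher at P14 (limma adjusted p = 0.000962), with no array above background at P5, and it entered the test through P14 alone, which favoured a rise, as Cldn6 did through P5. Gja5 fell by 0.62 and Gjc1 by 0.57 on the log2 scale (limma adjusted p = 0.000205 and 3.48e-06), and the other probes of Gja5 gave -0.25 (adjusted p = 0.393, limma) and -0.72 (adjusted p = 0.00164, limma). Dsg2 was -0.14 (adjusted p = 0.404, limma), and -1.78 (adjusted p = 0.000513, limma) by its second probe, which was above background on 1 of 4 arrays at P14. Cldn1 rose by 0.58 (adjusted p = 0.0237, limma), a call that 5 of 8 fits with an array left out kept. Cldn22 (2.06, limma adjusted p = 0.0316; 3 of 8 such fits) and Gjc3 (0.89, limma adjusted p = 0.0357; 4 of 8) rose less firmly, and Cldn13 (-1.49, limma adjusted p = 0.000771) fell. Cldn3, with 0.03 (adjusted p = 0.784, limma) and a 95% confidence interval of -0.16 to 0.23, did not pass.

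The antagomiR is directed at miR-34a-5p, whose mature sequence (RefSeq, chr4:150068473-150068494 of GRCm38.p6, plus strand) is shown with its seed, bases 2 to 8, in capitals.
miR-34a-5p: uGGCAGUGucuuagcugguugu
AntagomiR-34a left nearly all junction genes without a call. At P5 none of the 46 passed in 85% O2 (all genes 0.101%) and none in 21% O2 (all genes 0.101%), and 2 and 9 of them had an unadjusted p under 0.05 in limma, as did 13.8% and 16.6% of all genes. At P14 in 21% O2 none of the 47 passed (all genes 0%), and 5 had an unadjusted p under 0.05, as did 7.36% of all genes. In 85% O2 at P14 a single gene passed, beside 2.49% of all genes, and 9 of 47 had an unadjusted p under 0.05, as did 16.1% of all genes. This was Cldn5, with 6.89, 6.84, 6.84 and 6.84 in SCR and 6.56, 6.68, 6.50 and 6.48 in A34a mice. All A34a mice were lower, with a log2 fold change of -0.29 ± 0.06 SE (adjusted p = 0.0292, limma). Of the 8 fits with an array left out 1 kept this call, the one without mouse 2 of the A34a mice, with -0.34 (adjusted p = 0.0121, limma), and in the others Cldn5 ran from -0.30 to -0.27. Without mouse 4 of the A34a mice Cldn5 was -0.27 (adjusted p = 0.0805, limma), and the single gene called was Gja10, which no array of either group read well above background. The call for Cldn5 was also lost under 8 alternatives of the processing, among them the 2-fold threshold, which a change of this size could not pass. With array weights 1 junction gene passed. With probes well above background on every array, or with any probe of the gene, 2 passed.

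Among the genes with the smallest p, Gja5 was 0.40 (adjusted p = 0.253, limma), Gja4 0.34 (adjusted p = 0.301, limma) and Gjb1 0.47 (adjusted p = 0.391, limma) in 85% O2 at P5. Gja4 in 85% O2 was 2.08, 2.42, 1.80 and 2.05 in SCR and 2.22, 2.64, 2.45 and 2.41 in A34a mice, and the groups overlapped. In 21% O2 at P5 Cldn5 was 0.33 (adjusted p = 0.131, limma), with the sign opposite to that in 85% O2 at P14, and Cldn20 0.64 (adjusted p = 0.215, limma). Cldn22 was above background on all 4 SCR arrays and on no A34a array there, at least 2.68-fold lower (limma adjusted p = 0.0853), and the airway secretory list was lower there too, as given for Cldn22. Cldn22 entered the test at P5 through these SCR mice alone, which favoured a lower value in A34a mice. At P14 in 21% O2 Cldn1 was -0.32 (adjusted p = 0.473, limma) and Gjc3 0.62 (adjusted p = 0.473, limma), and Cldn20 was above background on 3 of 4 SCR arrays and no A34a array (limma adjusted p = 0.473). For the genes that oxygen moved most the values in 85% O2 at P14 were -0.33 (adjusted p = 0.736, limma) for Cldn4, -0.20 (adjusted p = 0.337, limma) for Cldn7, 0.05 (adjusted p = 0.804, limma) for Tjp1, -0.15 (adjusted p = 0.621, limma) for Tjp3 and -0.04 (adjusted p = 0.873, limma) for Gja4. A second probe of Ocln was -0.35 (adjusted p = 0.048, limma), while the brighter was -0.04 (adjusted p = 0.936, limma).

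The data limit how large an effect of the antagomiR could have been missed. The 95% confidence interval of the log2 fold change lay within 1 of 0 for 35 of 46 genes in 85% O2 and 39 of 46 in 21% O2 at P5, and for 35 of 47 and 36 of 47 at P14. The log2 fold changes in 85% O2 lay between -0.47 and 0.52 at P5 and between -1.25 and 0.79 at P14. The difference of the antagomiR effect between the oxygen levels passed for no junction gene at P5 (all genes 0.0633%) or P14 (all genes 0.0673%), and 5 of 46 and 4 of 47 had an unadjusted p under 0.05 in limma, as did 11.6% and 12.4% of all genes. The smallest p belonged to Cldn22 (limma adjusted p = 0.235), Cldn11 (0.88, limma adjusted p = 0.356) and Tjp1 (-0.27, limma adjusted p = 0.362) at P5 and to Cldn9 (-0.54, limma adjusted p = 0.227) and Cldn5 (-0.26, limma adjusted p = 0.233) at P14. The filter favoured such a difference for Cldn22, which entered the test at P5 through normoxic SCR mice alone. Dsg1c, called for oxygen in SCR but not in A34a mice at P14, had a difference of -1.26 (adjusted p = 0.453, limma), or -0.50 (adjusted p = 0.551, limma) without mouse 4 of the A34a mice in 85% O2. Genes that passed in one kind of mouse and not in the other were therefore not shown to differ between them.

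**Figure D5:**
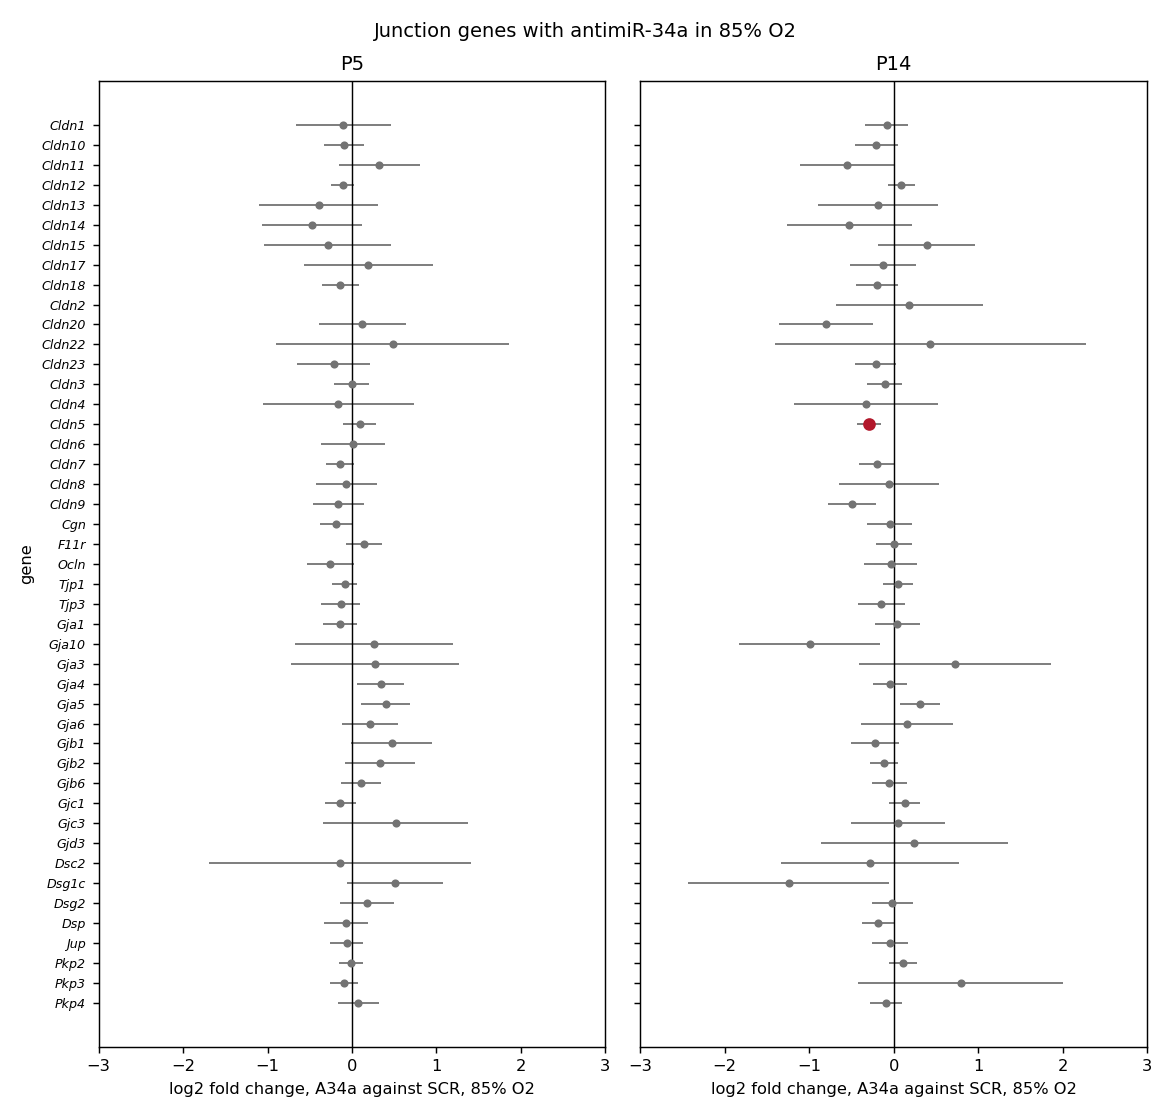
Log2 fold change between A34a and SCR mice in 85% O2 at P5 and at P14, 1 row a junction gene, with points for the estimate from 4 mice a group and lines for its 95% confidence interval. Red marks an adjusted p under 0.05. Only Cldn5 at P14 is red, at a log2 fold change of -0.29, and most other intervals cross 0.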

How the data were processed

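Whole-lung RNA of 32 mice was hybridised to one-colour Agilent arrays. Per the file headers, the deposited intensity of each spot came from Agilent Feature Extraction 10.7.3.1, background-subtracted and not normalized between arrays. The authors' table holds log2 values (correlation with the spot values 0.997 or higher).

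The log2 of the processed intensity minus the array's 75th percentile was used. Spots marked as outliers were left out, repeated spots averaged, and the brightest probe of a gene read. Probes that all 4 arrays of a group read well above background were tested with limma 3.58.1 in R 4.3.3, with 1 mean per group, all 16 arrays of an age together (32 for comparisons between ages) and Benjamini-Hochberg adjustment over all probes at 0.05. Replicates are separate mice. A group with no array above background gives a bound only, computed from the faintest detected signal of each of its arrays where that was higher. Named genes were a list of core junction genes, the 5 called members with the largest change in each direction and, where none was called, the 3 with the smallest p. Counts are over all members, and the results of some of them are not reported here. Members and lists were chosen with earlier results of these data known. Positions of probes are on mm9, from the annotation in the array files. Scripts were tested on simulated data. Alternatives were normexp correction (offset 50), quantile normalization, the authors' values, the filter on dim probes, the fitted groups, the methods' t-test, array weights, a replicate block, any probe of a gene, a 2-fold threshold and leaving out arrays.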

Additional observations from a re-analysis of the deposited data

Results flagged for a closer look

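In 18 of 299 sets of 4 mice, 1 mouse lay farther from the nearest of the others than Dixon's test allows for the spread of the set, where chance gives about 1 in 20, and those of the genes named here follow. Values are log2 levels against the array's 75th percentile. Among the SCR mice in 21% O2 at P5, these were Cldn5 in mouse 4 (5.19, the others 5.51 to 5.56) and Gjb2 in mouse 4 (-1.50, the others -2.54 to -2.47). Among the A34a mice in 21% O2 at P5, these were Cgn in mouse 4 (2.23, the others 1.97 to 1.99), Cldn1 in mouse 2 (-5.27, the others -4.53 to -4.45), Cldn11 in mouse 1 (-3.35, the others -3.08 to -3.05) and Dsp in mouse 1 (0.71, the others 0.86 to 0.88). Among the A34a mice in 85% O2 at P5, these were Cldn12 in mouse 1 (1.59, the others 1.77 to 1.79) and Cldn7 in mouse 1 (3.32, the others 3.57 to 3.61). Among the SCR mice in 85% O2 at P14, these were Cldn5 in mouse 1 (6.89, the others at 6.84), Gjb1 in mouse 3 (-0.12, the others -0.77 to -0.68) and Pkp3 in mouse 1 (-1.75, the others 1.55 to 1.68). Among the A34a mice in 85% O2 at P14, these were Gja1 in mouse 2 (0.20, the others -0.43 to -0.40), Jup in mouse 1 (-2.04, the others -1.90 to -1.89) and Ocln in mouse 4 (-1.03, the others -0.52 to -0.48). Among the A34a mice in 21% O2 at P14, these were Gjd3 in mouse 1 (-4.64, the others -4.27 to -4.22), Pkp4 in mouse 3 (0.29, the others 0.16 to 0.18) and Tjp3 in mouse 1 (1.67, the others 1.51 to 1.53). Of these, Pkp3 in 85% O2 at P14 was the widest gap, and Gjb2 was high in the mouse whose skeletal muscle and squamous genes were high too.

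The oxygen effect in SCR mice differed between the ages for 16 genes, and for those named here it is given as the P14 minus the P5 log2 fold change with limma's adjusted p. It was more positive at P14 for Gjc1 0.59 (0.000328), Gjb2 1.05 (0.000383), Tjp3 0.72 (0.00135), Cldn20 1.52 (0.00168), Cldn7 0.51 (0.00248), Gjb6 0.50 (0.00733), Dsg1c 2.01 (0.0137) and Gjb1 0.82 (0.0164). It was more negative at P14 for Tjp1 -0.74 (5.1e-06), Jup -0.90 (9.51e-06), Ocln -0.86 (0.00147), Cgn -0.64 (0.0016), Cldn12 -0.27 (0.0209), Cldn1 -0.87 (0.0214), Gja1 -0.39 (0.0474). With 1 array left out, the call for Gja1 was kept in 5 of 16 fits, and for Cldn1 and Cldn12 in 15 of 16. Without mouse 4 of the SCR mice in 21% O2 at P5, Cldn12 was -0.23 (adjusted p = 0.0549, limma), and without mouse 2 Cldn1 was -0.76 (adjusted p = 0.0524, limma). Cldn20 was well above background on 3 of 4 arrays of SCR mice in 21% O2 at P14.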

How the results depend on the processing

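Counts are junction genes past the threshold, with the count as reported first. For oxygen in SCR mice at P5, 25 became 16 with the methods' t-test (all genes 46.4% and 32.4%) and 7 with a change of at least 2-fold as well. With that fold, oxygen in A34a mice at P5 went from 24 to 4, oxygen at P14 from 32 to 15 in SCR and from 30 to 16 in A34a mice, age from 29 to 7 and the difference of the oxygen effect between ages from 16 to 4. For antagomiR-34a in 85% O2 at P14, 1 became 0 with normexp background correction, quantile normalization, no filter on dim probes, a fit of the compared groups alone, a replicate block, the methods' t-test, the authors' processed values or a change of at least 2-fold, and 2 with probes well above background on every array or with any probe of the gene. For antagomiR-34a in 85% O2 at P5, 0 became 4 without the filter on dim probes (all genes 5.89%). With array weights, antagomiR-34a in 21% O2 gave 1 at P5 (all genes 2.13%) and 10 at P14 (19.7%), and its difference between oxygen levels at P14 gave 5 (10.4%). Without the 2 P14 arrays in 21% O2 that stood apart in brightness (mouse 4 of the SCR and mouse 1 of the A34a mice), these 2 P14 counts were 2 and 2 (8.69% and 9.89%). The cause of these changes was not tested.

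With 1 array left out in turn, the counts ran from 22 to 26 for oxygen in SCR mice and in A34a mice at P5, from 26 to 32 and from 27 to 31 at P14, from 26 to 29 for age, from 13 to 17 for the difference of the oxygen effect between ages and from 0 to 2 for antagomiR-34a in 85% O2 at P14. They were 0 throughout for the other antagomiR comparisons and its differences between oxygen levels. Replicate numbers did not pair the mice: deviations of mice with the same number had a median correlation of 0.009 at P5 and 0.041 at P14. With a replicate block the counts were 25 and 25 at P5 and 30 and 27 at P14 for oxygen in SCR and A34a mice, 29 for age and 16 for the difference between ages.

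A changed sign was seen for Cldn13 in SCR mice at P14 with normexp correction (0.0589) and for Cldn1 in A34a mice at P14 with quantile normalization (0.19) and the authors' values (0.19). No other called value of a named gene changed sign under the alternatives run. Dim genes such as Cldn1, Cldn13, Cldn22, Gja10 and Gja3 are the least certain, since their levels lie near the background, and 4 mice a group limit the precision of all values.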
